A study of Homo sapiens with 36 samples.

Results

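The miR-320 family was examined in 7 tables of small RNA sequencing, each holding 1 aneuploid line of HCT116 or RPE1 cells with its control. Members were taken by name, as every miRNA whose name starts with hsa-miR-320. This gave 5 of the 509 names listed in at least 1 table. The family itself accounts for 4 of them, hsa-miR-320b, hsa-miR-320c, hsa-miR-320d and hsa-miR-320e. The remaining name, hsa-miR-3200-5p, matched by its first letters and is another miRNA. Other family members were not analysed here, including one with a locus on chromosome 8, which 1 of the HCT116 lines gained.

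HCT116 is a near-diploid human colon carcinoma line with a modal number of 45 chromosomes, and RPE1 is a human retinal pigment epithelial line immortalised with telomerase (hTERT) with a modal number of 46. The 36 libraries fell into 12 groups of 3, made up of 7 aneuploid lines and 5 sets of controls, and an asterisk marks lines that carry a GFP-tagged histone H2B. HCT116 5/4 has 4 copies of chromosome 5 and was set against HCT116, whereas HCT116* 3/3 c11 and HCT116* 8/3 c7 have 3 copies of chromosome 3 and of chromosome 8 and were set against HCT116*. HCT116 18/3 c2, with 3 copies of chromosome 18, carries no tagged histone but was also set against HCT116*, so the gained chromosome and the histone tag cannot be told apart in this line. This control is the one that the labels name, while the study's text lists the line beside untagged HCT116. RPE1 5/3 12/3 has 3 copies of chromosomes 5 and 12 and was set against RPE1, and RPE1* 7/3 and RPE1* 21/3, with 3 copies of chromosome 7 or 21, were set against separate sets of RPE1* libraries. Per the study's methods, HCT116 5/4 was received from another laboratory, the other lines were made by microcell transfer, and names with a c number stand for a single clone. Chromosome 12 in RPE1 5/3 12/3 was a spontaneous gain. RPE1* 7/3 also gained copies of other chromosomes spontaneously, chromosome 12 among them, so these lines share that gain. The controls carry no transferred chromosome.

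MicroRNAs are short RNAs that guide Argonaute proteins to messenger RNAs, chiefly through pairing of the seed near their 5′ end. Most are cut from a long transcript by the nuclease Drosha in the nucleus and then by Dicer in the cytoplasm. The precursor of miR-320 is known as an exception that is transcribed directly as a short capped hairpin, leaves the nucleus without a Drosha cut and is then cut by Dicer. Whether each of the members listed here is made in this way cannot be read from miRNA levels.

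The mature sequences are shown because they set which members can be told apart by sequencing and which would pair with the same targets. They are RefSeq entries on GRCh38.p14, printed 5′ to 3′, with the seed (bases 2 to 8) in capitals.
hsa-miR-320b: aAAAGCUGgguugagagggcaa
hsa-miR-320c: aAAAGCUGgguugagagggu
hsa-miR-320d: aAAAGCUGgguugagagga
hsa-miR-320e: aAAGCUGGguugagaagg
hsa-miR-3200-5p: aAUCUGAGaaggcgcacaaggu
The first 3 share the seed AAAGCUG, while hsa-miR-320e has the seed AAGCUGG. The members differ at their 3′ ends, with lengths of 22, 20, 19 and 18 bases. Counted from the 5′ end, hsa-miR-320b and hsa-miR-320c are identical over 19 bases, and hsa-miR-320d is identical to both over 18. A read that ends within this stretch cannot be assigned to 1 of the 3, and the part of this in the levels was not tested. Family members not analysed here were not compared in sequence, so reads shared with them were not assessed either. The sequence of hsa-miR-320e departs after 3 bases, although a stretch of 15 bases is shared at another offset. No stretch of more than 8 bases links hsa-miR-3200-5p to any of them.

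The bases that follow each mature sequence in its hairpin differ between the paired loci of a member, which the mature reads cannot separate. They are shown, in capitals, for hsa-miR-320c and hsa-miR-320d, the 2 members whose levels stood out among lines with shared controls.
MIR320C1: aaaagcuggguugagaggguAGAAAAAA
MIR320C2: aaaagcuggguugagaggguAAGAAAAG
MIR320D1: aaaagcuggguugagaggaUGAAAAGAA
MIR320D2: aaaagcuggguugagaggaGCAGAAAAG
Both loci of hsa-miR-320c are on chromosome 18 (GENCODE 44 on GRCh37), at chr18:19263471-19263558 and chr18:21901650-21901699 on the plus strand. They lie in introns of ABHD3 and of OSBPL1A, 2 protein-coding genes on the minus strand. The loci of hsa-miR-320d, chr13:41301964-41302011 and chrX:140008337-140008384, are on the minus strand and overlap no other annotated gene. For hsa-miR-320b, MIR320B1 at chr1:117214371-117214449 overlaps no other gene, and MIR320B2 at chr1:224444706-224444843 lies on the minus strand in an intron of NVL, which is on the same strand. MIR320E, at chr19:47212550-47212602, lies in an intron of PRKD2 on the same strand. The locus of hsa-miR-3200-5p, chr22:31127544-31127628, lies in an intron of OSBP2.

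Each table gives the authors' mean normalised count of a miRNA over 6 libraries, the 3 of a line and the 3 of its control. The value of a single library is not shown, the tables give no read depth of a library, and no replicate error or test is therefore given for the levels below. Because the authors normalised the tables separately, levels are stated as parts per 1e+06 (ppm) of the summed mean of a table, which ranged from 5556870 to 11221232 over 273 to 434 listed miRNAs. The tables labelled HCT116 and RPE1 were checked on marker miRNAs. The summed level of 7 listed colon epithelial markers was 2018 to 3155 ppm in HCT116 tables and 192 to 251 in RPE1 tables, most of it hsa-miR-200a-5p in HCT116. Of the 7, 5 were higher in every HCT116 table, while hsa-miR-215 and hsa-miR-194-5p were not. Of 6 listed RPE1 markers only hsa-miR-204-5p, known from pigment epithelium, was higher in every RPE1 table, at 379.5 to 1449.6 ppm against 3.3 to 4.50. Others ran the opposite way, with hsa-miR-145-5p at 144 to 265 ppm in HCT116 and 7.98 to 100.3 in RPE1, and hsa-miR-199b-5p at 22.3 to 36.3 in HCT116 and in no RPE1 table.

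The listed family members made up 0.0147% to 0.198% of the summed mean of a table, and nearly all of this was hsa-miR-320b. In every table hsa-miR-320b was the most abundant of them, followed by hsa-miR-320c and then by hsa-miR-320d. The share of hsa-miR-320b in the listed family ranged from 93.6% to 98.6%, that of hsa-miR-320c from 1.06% to 3.67% and that of hsa-miR-320d from 0.344% to 2.71%. These 3 members were listed in all 7 tables, as were 205 miRNAs in all.

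The authors' mean of hsa-miR-320b was 2841 in the table of HCT116 5/4, 10342 in HCT116 18/3 c2, 14239 in HCT116* 3/3 c11 and 14784 in HCT116* 8/3 c7, and 1262 in RPE1 5/3 12/3, 7242 in RPE1* 7/3 and 1279.9 in RPE1* 21/3. The corresponding levels in ppm were 511, 1300.2, 1592 and 1886 in the HCT116 tables and 138, 645 and 159 in the RPE1 tables. By abundance it stood at place 24 to 31 in HCT116 18/3 c2, HCT116* 3/3 c11, HCT116* 8/3 c7 and RPE1* 7/3, and at places 52, 69 and 66 in the tables of HCT116 5/4, then RPE1 5/3 12/3 and then RPE1* 21/3. Within RPE1 the table of RPE1* 7/3 stood alone, and it lay above that of HCT116 5/4, so the parental lines overlapped.

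For hsa-miR-320c the authors' means were 83.9, 246, 312 and 552 in the HCT116 tables and 48.1, 77.6 and 50.2 in the RPE1 tables, in the same order. Its levels were 15.1, 30.9, 34.9 and 70.5 ppm in HCT116 and 5.27, 6.91 and 6.23 ppm in RPE1. Within HCT116 the table of HCT116* 8/3 c7 was highest and that of HCT116 5/4 lowest, whereas the 3 RPE1 tables lay close together. The order in ppm from high to low was HCT116* 8/3 c7, HCT116* 3/3 c11, HCT116 18/3 c2, HCT116 5/4, RPE1* 7/3, RPE1* 21/3 and RPE1 5/3 12/3. With levels scaled by the median of ratios (described below), RPE1* 7/3 (92.4) lay above HCT116 5/4 (84.1). Without single libraries it cannot be said which neighbours differ beyond their spread.

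The authors' means of hsa-miR-320d were 50.8, 93.4, 119.7 and 179.9 in the HCT116 tables and 34.3, 25.2 and 37.0 in the RPE1 tables. The levels were 9.14, 11.7, 13.4 and 22.9 ppm in HCT116 and 3.76, 2.25 and 4.59 ppm in RPE1. RPE1* 7/3, the RPE1 table with the most hsa-miR-320b, had the least hsa-miR-320d. The plot of levels by table shows the 3 members side by side.

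**Figure D1:**
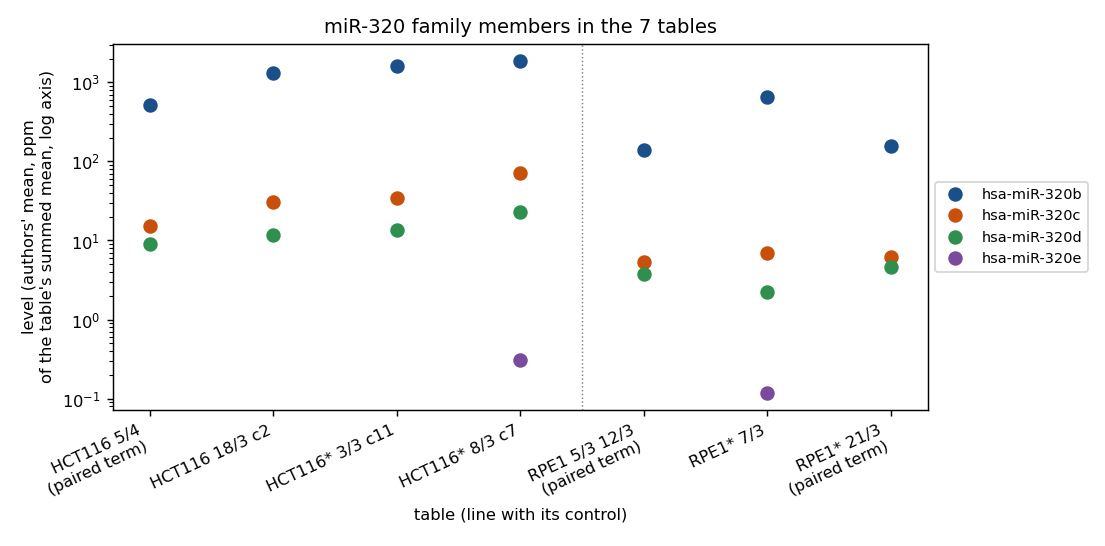
Level of each listed miR-320 family member (authors' mean in ppm of the table's summed mean, log axis) in the 7 tables, HCT116 left and RPE1 right of the dotted line, with each point 1 table and no error available. hsa-miR-320b lies between 138 and 1886 ppm, above hsa-miR-320c (5.27 to 70.5) and hsa-miR-320d (2.25 to 22.9) in every table, and hsa-miR-320e is listed in 2 tables.

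The remaining names were at low levels. The authors' mean of hsa-miR-320e was 2.44 in HCT116* 8/3 c7 and 1.31 in RPE1* 7/3, close to the lowest means these tables list (2.14 and 1.10), and it was not listed in the other 5. That it appears in these 2 tables therefore says little, since the lowest mean listed in the other 5 ranged from 2.34 to 11.9. hsa-miR-3200-5p had means of 11, 10.1 and 11.9 in HCT116 5/4, HCT116 18/3 c2 and HCT116* 8/3 c7. It was listed in no RPE1 table and not in HCT116* 3/3 c11, whose lowest listed mean is 11.9.

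From the lowest to the highest table, hsa-miR-320b differed by 13.6-fold, hsa-miR-320c by 13.4-fold and hsa-miR-320d by 10.2-fold. The median of this range over the 205 miRNAs was 5.72-fold, with quartiles of 3.31 and 12.0. The members thus ranged more widely in ppm than 78.4%, 77.5% and 72.1% of the others. Scaled by the median of ratios over the 205 miRNAs, hsa-miR-320b ran from 1616 to 10758. In this scaling hsa-miR-320c ran from 61.6 to 402 and hsa-miR-320d from 30.1 to 131, and the range of the other miRNAs was not computed.

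Both parental lines were compared by the medians of their tables. The median level of hsa-miR-320b was 1446 ppm in HCT116 against 159 in RPE1, a log2 difference of 3.18. For hsa-miR-320c it was 32.9 against 6.23, a difference of 2.40, and for hsa-miR-320d 12.6 against 3.76, a difference of 1.74. The same difference had a median of 0.95 over the 205 miRNAs, and the members lay above 89.7%, 80.4% and 66.7% of the others. Levels in ppm depend on the few most abundant miRNAs, and each table's most abundant miRNA held 39.3% to 49.2% of its summed mean. Scaled by the median of ratios over the 205 miRNAs, which brings this median to -0.04, the members were higher in HCT116 by 2.22, 1.44 and 0.80 on the log2 scale. The levels of 2 of the 3 members, hsa-miR-320c and hsa-miR-320d, did not overlap between the 4 HCT116 and the 3 RPE1 tables, both being higher in HCT116. This held for 58.5% of miRNAs in either direction and for 47.8% with HCT116 higher, so the count is near the background. With the median of ratios it held for 0 of the 3 members and for 46.8% of miRNAs.

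The tables also differ in whether the authors fitted them with a paired term, and hsa-miR-320b levels differed along the same split. The term marks the tables but does not enter the means, which are averages of scaled counts. Within HCT116 the split is also that between the untagged HCT116 control and the HCT116* control, so these cannot be told apart. Within RPE1 each table has its own control libraries. Per the study's methods, paired replicate information was added to account for sequencing batches for RPE1* 21/3, for HCT116 5/4 and also for RPE1 5/3 12/3 but not for the other 4, and these 3 tables had the lowest hsa-miR-320b. Within HCT116 the tables without the paired term were higher by 1.64 on the log2 scale (3.11-fold) for hsa-miR-320b, by 1.21 for hsa-miR-320c and by 0.55 for hsa-miR-320d, where the median of 205 miRNAs was -0.05. Within RPE1 the values were 2.12 (4.35-fold), 0.27 and -0.89, and the median was -0.12. The difference of hsa-miR-320b was the second largest of the 205 miRNAs in RPE1 and the 13th in HCT116. Within the tables that have the paired term, HCT116 was above RPE1 by 1.79, 1.40 and 1.14 for hsa-miR-320b, hsa-miR-320c and hsa-miR-320d, and within those that lack it by 1.30, 2.34 and 2.57. The median of the 205 miRNAs was 1.02 with the term and 1.12 without. In the same order, the members lay above 72.1%, 60.3% and 52.0% of miRNAs with the term. Without it they lay above 54.4%, 80.4% and 85.8%. Closest to the background were hsa-miR-320d with the term and hsa-miR-320b without it, followed by hsa-miR-320c with the term. Each set holds only 1 table of 1 of the parental lines. The part of the sequencing batches in these levels was not tested.

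Ratios of members within a table need no scaling between tables. The ratio of hsa-miR-320c to hsa-miR-320d was 1.65, 1.40 and 1.36 in the tables with the paired term (HCT116 5/4, then RPE1 5/3 12/3 and then RPE1* 21/3) and 2.63, 2.61, 3.07 and 3.07 in those without (HCT116 18/3 c2, HCT116* 3/3 c11, HCT116* 8/3 c7 and RPE1* 7/3). These sets of tables did not overlap, with both parental lines in each. Of all pairs of the 205 miRNAs, 27.2% had ratios that did not overlap between the same sets. The ratio of hsa-miR-320b to hsa-miR-320d also did not overlap, at 34.6 to 55.9 with the paired term and 82.2 to 287 without. The ratio of hsa-miR-320b to hsa-miR-320c did overlap, at 25.5 to 33.9 with the term and 26.8 to 93.3 without. RPE1* 7/3 had the most hsa-miR-320b for its hsa-miR-320c (93.3) of all tables.

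**Figure D2:**
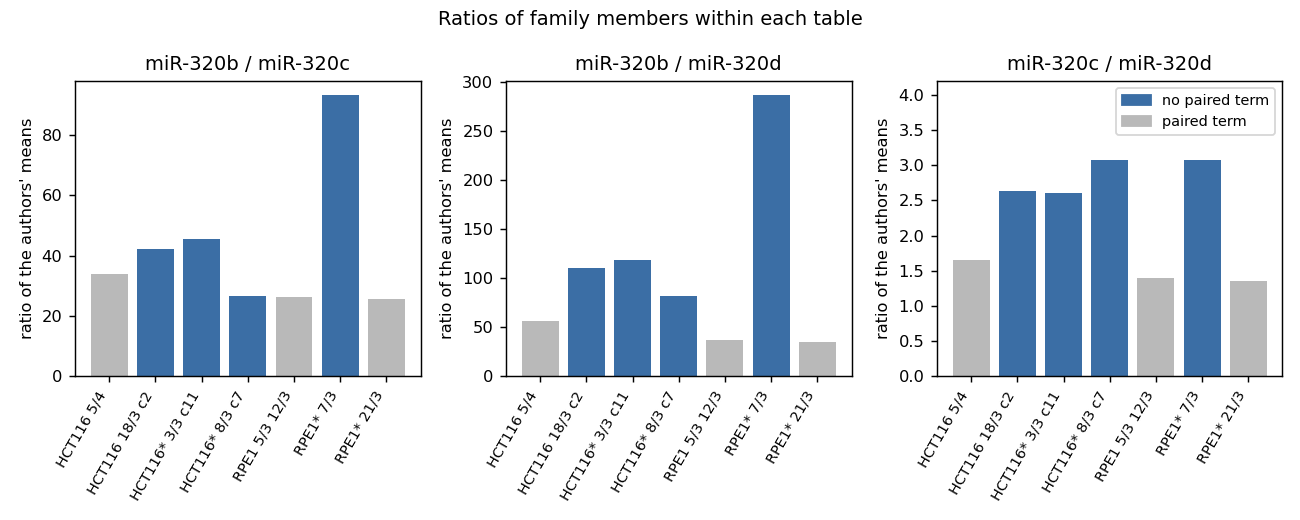
Ratio of the authors' means of 2 family members within each of the 7 tables (bars from 0, grey for tables the authors fitted with the paired term, blue for those without). The ratio of hsa-miR-320c to hsa-miR-320d is 1.36 to 1.65 in the grey bars and 2.61 to 3.07 in the blue ones, and RPE1* 7/3 has the highest ratios of hsa-miR-320b to hsa-miR-320c (93.3) and to hsa-miR-320d (287).

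HCT116* 8/3 c7, HCT116* 3/3 c11 and HCT116 18/3 c2 have the HCT116* libraries as their common control. Their 3 tables were all fitted without the paired term but were normalised separately. They differ by the line, and HCT116 18/3 c2 also lacks the tagged histone. Each gained chromosome is seen here in a single clone, so chromosome and clone cannot be told apart. Chromosome 8 also holds a locus of a family member that was not analysed here, and its part in these levels was not tested. The comparison therefore describes the family in these lines. The table of HCT116* 8/3 c7 held more hsa-miR-320c, at 70.5 ppm against 30.9 and 34.9, and more hsa-miR-320d, at 22.9 against 11.7 and 13.4. hsa-miR-320b differed less, at 1886 against 1300.2 and 1592. Against the mean log2 level of the other 2 tables, the differences in HCT116* 8/3 c7 were 1.10 for hsa-miR-320c (2.15-fold), 0.87 for hsa-miR-320d (1.83-fold) and 0.39 for hsa-miR-320b (1.31-fold), where the median of the 279 miRNAs listed in all 3 tables was 0.10. From the top, hsa-miR-320c was at place 3, hsa-miR-320d at place 7 and hsa-miR-320b at place 35 of the 279. Past a log2 difference of 0.6 in either direction were 2 of the 3 members and 7.89% of all miRNAs. Against HCT116* 3/3 c11 alone, the other tagged line, the differences were 1.01, 0.78 and 0.24 for hsa-miR-320c, hsa-miR-320d and hsa-miR-320b, with 9.68% of all miRNAs past 0.6.

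Since 3 of the 6 libraries behind each of these means are the same controls, the table means understate how far the lines lie apart. If the control level is the same in these tables, hsa-miR-320c was at least 2.28-fold higher in the line HCT116* 8/3 c7 than in the line HCT116 18/3 c2 and at least 2.02-fold higher than in HCT116* 3/3 c11. For hsa-miR-320d these bounds were at least 1.95-fold and 1.72-fold, and for hsa-miR-320b 1.45-fold and 1.18-fold. The same reasoning limits the control. Its level of hsa-miR-320c can be at most 61.7 ppm, which puts HCT116* 8/3 c7 at no less than 79.2 ppm and at least 1.28-fold above its control (1.07-fold and 1.19-fold with 2 other scalings). This bound rests on HCT116 18/3 c2 having the control the labels give. From the tables of HCT116* 8/3 c7 and HCT116* 3/3 c11 alone it was 1.02, and 0.943 and 1.16 with the 2 other scalings, so these means do not then fix which of line and control is higher. For hsa-miR-320d (0.954) and hsa-miR-320b (0.450) the bound lies below 1, so the table means do not fix which of line and control is higher. These bounds cover the arithmetic of the means and carry no replicate error.

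The composition of the family also differed in that table. The ratio of hsa-miR-320b to hsa-miR-320c was 26.8 in HCT116* 8/3 c7 against 42.1 in HCT116 18/3 c2 and 45.6 in HCT116* 3/3 c11, a log2 difference of -0.71 from their mean. The ratio of hsa-miR-320b to hsa-miR-320d differed by -0.48 and that of hsa-miR-320c to hsa-miR-320d by 0.23. hsa-miR-320c and hsa-miR-320d thus lay closer to each other than either did to hsa-miR-320b.

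Chromosome 18 holds both loci of hsa-miR-320c and was gained in HCT116 18/3 c2. In that table hsa-miR-320c was at 30.9 ppm, the lowest of the 3, with a log2 difference of -0.68 from the mean of the other 2 (0.623-fold). hsa-miR-320d, with no locus on chromosome 18, differed by -0.58 and hsa-miR-320b by -0.41, where the median of all 279 miRNAs was -0.15. Past 0.6 in either direction were 1 of the 3 members and 10.0% of all miRNAs. With the 2 other scalings hsa-miR-320c differed by -0.57 and was no longer past 0.6. Part of this difference is the high value in HCT116* 8/3 c7, and against HCT116* 3/3 c11 alone the levels were 30.9 and 34.9 ppm. Of the 4 miRNAs whose loci are all on chromosome 18 and that are listed in the 3 tables, hsa-miR-3929 differed by 1.11, hsa-miR-548av-5p by -0.13 and hsa-miR-122-5p, which is known as a liver miRNA, by -1.17. The authors' means of hsa-miR-3929 (12.9 to 30.1) and hsa-miR-122-5p (8.21 to 29.5) were low. The miRNAs of the gained chromosome did not move in 1 direction in these means.

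In the table of HCT116* 3/3 c11 the differences were 0.02 for hsa-miR-320b, -0.42 for hsa-miR-320c and -0.30 for hsa-miR-320d, with a median of 0.02 over all miRNAs. Past 0.6 were 0 of the 3 members and 7.17% of all miRNAs. These values share their tables with those of the other lines and are not independent of them.

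**Figure D3:**
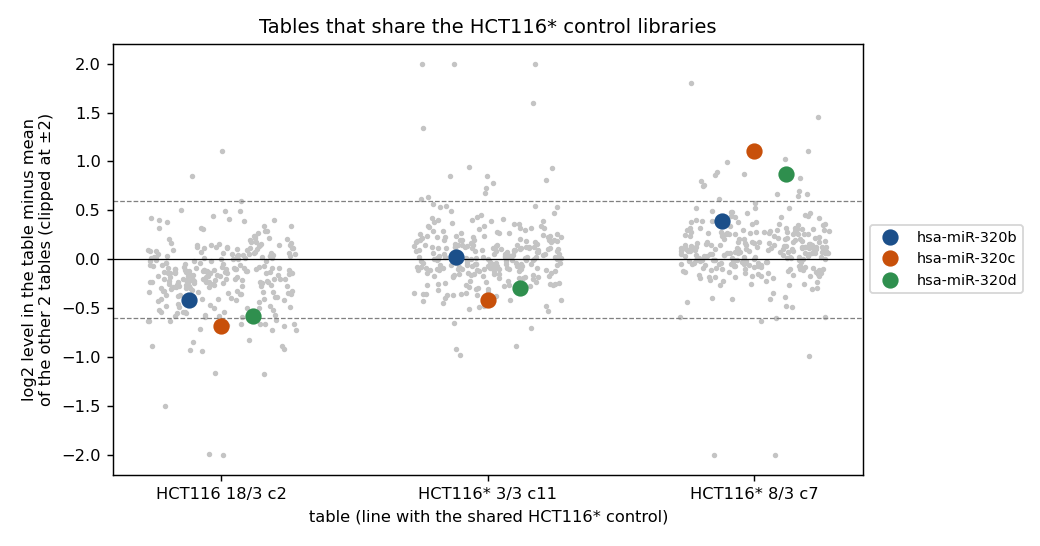
Log2 level of each miRNA in 1 table minus its mean log2 level in the other 2 tables on the HCT116* controls (vertical axis, clipped at 2 on both sides), for 279 miRNAs (grey) and the 3 family members (coloured), with dashed lines at 0.6 on both sides. In HCT116* 8/3 c7 hsa-miR-320c (1.10) and hsa-miR-320d (0.87) lie near the top of the cloud, and in HCT116 18/3 c2, which gained the chromosome of hsa-miR-320c, that member lies at -0.68.

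Other miRNAs were taken from a list of 11 names described as made without a Drosha cut or as mirtrons. hsa-miR-484 is transcribed as a capped hairpin like miR-320. Mirtrons are hairpins of short introns released by splicing, and the list does not say which of the remaining names are mirtrons. Whether each of these is made by splicing and without Drosha cannot be read from miRNA levels. Of the 11 names, 5 were listed. hsa-miR-484 lay within a narrow range, from 199.96 to 374 ppm over the 7 tables. hsa-miR-877-5p, a mirtron, was at 14.1 to 42.1 ppm in the HCT116 tables and at 1.62 to 1.80 in the RPE1 tables. hsa-miR-1224-5p was listed in the 4 HCT116 tables (2.17 to 10.9 ppm), hsa-miR-1228-5p in all 7 (1.32 to 5.90) and hsa-miR-1226-5p in 3. In HCT116* 8/3 c7 against the other 2 tables on the same controls, 4 of them could be compared, their median difference was 0.10, that of all 279 miRNAs, and 0 of the 4 were past 0.6 against 7.89% of all, which with 4 miRNAs is no difference from the background. Values were -0.13 for hsa-miR-484, 0.08 for hsa-miR-877-5p, 0.12 for hsa-miR-1224-5p and 0.52 for hsa-miR-1228-5p.

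The miRNAs whose log2 level over the 7 tables was most like that of each member were ranked by Pearson's r among 173 miRNAs with a mean of at least 10 in every table. The 7 points share libraries and the scaling, and the values are a description. For hsa-miR-320b the highest were hsa-miR-92b-5p (0.991), hsa-miR-423-5p (0.987), hsa-miR-548aq-3p (0.986), hsa-miR-1292-5p (0.985) and hsa-miR-1254 (0.984). For hsa-miR-320c they were hsa-miR-146b-5p (0.972), hsa-miR-744-5p (0.963), hsa-let-7d-5p (0.960), hsa-miR-130b-5p (0.957) and hsa-miR-877-5p (0.957). For hsa-miR-320d they were hsa-miR-98-5p (0.964), hsa-let-7g-5p (0.964), hsa-miR-330-5p (0.961), hsa-miR-320c (0.941) and hsa-miR-301a-5p (0.940). Between members r was 0.902 for hsa-miR-320b with hsa-miR-320c, 0.941 for hsa-miR-320c with hsa-miR-320d and 0.716 for hsa-miR-320b with hsa-miR-320d. In the ranking for hsa-miR-320b, hsa-miR-320c was at place 29 and hsa-miR-320d at place 63. In that for hsa-miR-320c, hsa-miR-320b was at place 31 and hsa-miR-320d at place 15. In that for hsa-miR-320d, hsa-miR-320b was at place 77. Many other miRNAs were thus more like hsa-miR-320b than the other members were.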

How the data were processed

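Small RNA was sequenced by the authors from 36 libraries as single reads. Per the study's methods, adapters were removed with cutadapt (its version is not given in the sources used here), reads were mapped to hg19 and counted with mirdeep2, and each line was run with its control in DESeq2. The deposited value used is the mean signal of a miRNA, for which the authors scaled the counts of each library by its size factor and took the average of all 6 libraries in a table. The authors' comparison columns (log2 fold change, its standard error, statistic, p-value and adjusted p-value) hold the study's own results and were not used. The tables analysed give no value for a single library, so the planned count test was replaced by the planned description without a test.

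Python 3.11.15 with numpy 2.4.6, pandas 2.3.3 and matplotlib 3.10.9 was used. Means were divided by the table's sum and multiplied by 1e+06, with no pseudocount. The arithmetic for tables with shared controls was tested on simulated data. The simulated control counts were the same in every table and were not normalised. That check therefore does not cover the assumption of an equal control level on which the bounds rest. Alternatives were the median of ratios over 205 miRNAs, the sum without the 10 most abundant miRNAs, means of at least 10, means of log2 levels, and tables with or without the paired term. Named miRNAs were the family, the 5 most like each member, and those located only on a gained chromosome that holds a member. The list of miRNAs described as made without Drosha or as mirtrons was also named. The members and lists were chosen with earlier results of these data known. The paired-term split, the ratios of members and the comparison of HCT116* 8/3 c7 and HCT116* 3/3 c11, together and against each other, were added after the values had been seen. Positions are from GENCODE 44 on GRCh37, and RefSeq gave a position for 416 of 509 names. Sequences are from RefSeq on GRCh38.p14, whose hairpins differ in length from the GENCODE entries of the family.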

Additional observations from a re-analysis of the deposited data

How the results depend on the processing

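Without values of single libraries no replicate spread exists, so a value was taken to have moved when it changed by over 0.1 on the log2 scale. Of 48 values under alternative settings, 25 stayed within this limit, 22 moved and 1 changed sign, and the cause was not tested. The HCT116 over RPE1 difference was positive for all 3 members under every setting tried, but so was the median of all miRNAs in most (0.95 as reported, -0.04 with the median of ratios, 0.27 without the 10 most abundant, 0.85 with means of at least 10, and 1.02 and 1.12 with and without the paired term). For hsa-miR-320b, hsa-miR-320c and hsa-miR-320d it was 2.22, 1.44 and 0.80 with the median of ratios, 2.60, 1.84 and 0.96 without the 10 most abundant miRNAs, and 1.79, 1.40 and 1.14 in tables with the paired term. It was 2.30 and 1.99 for hsa-miR-320b and hsa-miR-320d with means of log2 levels, and 1.30 and 2.57 in tables without the paired term. In HCT116 18/3 c2 hsa-miR-320c differed by -0.57 from the other 2 tables with the median of ratios and by -0.57 without the 10 most abundant miRNAs, both inside 0.6. In HCT116* 3/3 c11 it differed by -0.55 in the latter setting, in which hsa-miR-320b turned from 0.02 to -0.11 and the median of all miRNAs there was also -0.11. In HCT116* 8/3 c7 hsa-miR-320c (1.00 and 1.12) and hsa-miR-320d (0.77 and 0.89) kept their direction and stayed past 0.6 in both scalings. No paired analysis was possible because the tables hold no values of single libraries, and leaving out a replicate could not be run for the same reason.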

Other observations

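A further listed miRNA, hsa-miR-4429, shares the seed of hsa-miR-320b, hsa-miR-320c and hsa-miR-320d but not their name, and it was looked up after the values of the family had been seen. Its RefSeq mature sequence has the seed (bases 2 to 8) in capitals.
hsa-miR-4429: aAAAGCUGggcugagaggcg
It matches hsa-miR-320c over the first 10 bases and is encoded on chromosome 2. It was listed in 3 of the 7 tables, with authors' means of 9.65 in HCT116 18/3 c2, 9.96 in HCT116* 8/3 c7 and 7.17 in RPE1* 7/3. These means lie far below those of hsa-miR-320b, so nearly all of the listed miRNA with this seed was hsa-miR-320b.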
